A study of Mus musculus with 6 samples.

Results

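A set of autosomal regions was accessible at every time point while mouse fibroblasts were turned into pluripotent cells, and at a moderate level in at least 1 library. A region was a member when it lay on chromosomes 1 to 19, had at least 100 normalised counts in all 6 libraries and had fewer than 500 in at least 1 of them. In all, 17707 of the 218231 autosomal regions met these limits (8.11%), among 223596 regions in the whole table. A further 5222 autosomal regions (2.39%) had at least 500 normalised counts in every library and are called strong regions here. Normalised counts are reads per region divided by a size factor of the library.

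Accessibility was measured by ATAC-seq, in which a transposase inserts sequencing adapters into open chromatin, so that more reads in a region mean a more accessible region. The cells came from female mouse embryos of a cross between Musculus mothers with a GFP transgene on the X chromosome and Castaneus fathers. MEF day 0 was passage 1 embryonic fibroblasts that carried lentiviruses for the reprogramming factors OSKM (Oct4, Sox2, Klf4 and c-Myc) under a doxycycline-inducible promoter and for M2rtTA, sorted for a silent GFP-bearing X chromosome. The libraries of days 8, 9, 10 and 12 were intermediates sorted with an antibody to SSEA1, a carbohydrate surface mark (FUT4+ in the labels), and kept in doxycycline and ascorbic acid, and iPSC was grown from picked colonies after both had been withdrawn. All 6 libraries shared the hybrid background and the virus treatment, and every title calls the cells GFP-negative. Each group held 1 library, so the differences have no check by replicates and no p-value is given. Since these were bulk samples, fewer cells with an open region and less opening per cell cannot be told apart.

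Chromatin that stays open across cell types is known to include the promoters of housekeeping genes and binding sites of the insulator protein CTCF, whereas enhancers are mostly open in some cell types and closed in others. During reprogramming the factors are known to close many fibroblast enhancers early and to open pluripotency enhancers step by step. A region that is open in every sample need not be open to the same degree. Values are given in the order of the series, that is MEF day 0, days 8, 9, 10 and 12, then iPSC, wherever 6 follow each other. The table gives each region as a row number and a chromosome, so regions are named by row here. Genes, coordinates and sequences were not analysed, and the labelled cell types were not checked against marker genes.

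Depth ranged from 22067333 to 32844411 reads in regions, and the size factors from 0.498 in MEF day 0 to 1.40 at day 9. A level of 100 normalised counts therefore stood for 49.8 reads in MEF day 0, for 79.8 in iPSC and for 110.5 to 140.1 among the intermediates. The median member had 302, 294, 348, 343, 315 and 295 reads. Counting error at these medians, with each read taken as independent, was between 5.36% and 5.83% of the value. The lowest read number of any member was 50, 111, 141, 127, 112 and 80. The intervals given here are for counting error alone. Among regions with 2 to 21 reads, even numbers were 1.53 times as frequent as odd ones in MEF day 0. The ratio was 0.98 to 1.17 in the other libraries. Reads may thus not be independent, and the errors and intervals may be too narrow, above all in MEF day 0. The source of the even numbers was not tested.

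The values used by the rule were the normalised counts themselves, so levels, changes and courses of the members are descriptions. The median member had 606, 266, 248, 271, 284 and 369.7 normalised counts. The middle 50% of members spanned 297 to 1155 in MEF day 0, 222 to 576 in iPSC and 163 to 376 at day 9. On the authors' scaling the median was thus highest in MEF day 0 and lowest at day 9, an order that other scalings did not keep. For the same members the medians were 328, 301, 313, 331, 383 and 403 with equal totals of autosomal counts, 299, 314, 325, 360.2, 442 and 398 with quantile normalisation, and 298, 319, 331, 318, 333 and 342 with size factors computed over the always-open regions. MEF day 0 was the lowest library under the last pair of scalings, and day 8 with equal totals. The always-open regions of the last scaling are the 22929 autosomal regions with at least 100 normalised counts in every library. Of these, 17707 are the members themselves. Level medians, small steps and more steady or level members under that scaling are thus partly built in. The strong regions had medians of 2281, 911, 782, 924, 848 and 1060.2, with the same highest and lowest library on the authors' scaling.

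"Moderate" described the lowest library of a member rather than all of them. Of the members, 5712 (32.3%) were below 500 normalised counts in all 6 libraries, 5550 (31.3%) in 5 of them and 2900 (16.4%) in 4. Another 1319 were below 500 in 3 libraries, 1042 in 2 and 1184 in 1. Below 500 were 7646 members in MEF day 0 (43.2%), 14920 to 16143 in the intermediates (84.3% to 91.2%) and 11795 in iPSC (66.6%). In MEF day 0, 5512 members reached 1000 normalised counts, against 23 at day 12 and 552 in iPSC. The most frequent pattern after that of all 6 libraries was a value of 500 or more in MEF day 0 alone, in 4527 members (25.6%). It was followed by 500 or more in both MEF day 0 and iPSC with all 4 intermediates below, in 2496 members (14.1%).

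The members below 500 throughout had medians of 261, 181, 166, 175, 185 and 234. These were the regions that stayed in the moderate range at every time point. Those below 500 in a single library had medians of 1434, 607, 500.1, 619, 594 and 713.

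Regions picked as nearest to the limits on either side had much the same lowest value, while their other libraries could differ. The members nearest to the lower limit, in rows 5543 and 6181 on chromosome 1, both had 80 reads (100.3 normalised counts) in iPSC as their lowest value. The regions nearest outside it, in rows 218115 and 211416 on chromosome 9, both had 140 reads (99.9 normalised counts) at day 9. At the upper limit, the member in row 209811 had a lowest value of 499.9 at day 10, and the strong region in row 208973 had a lowest value of 500.0 in iPSC, both on chromosome 9.

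**Figure D1:**
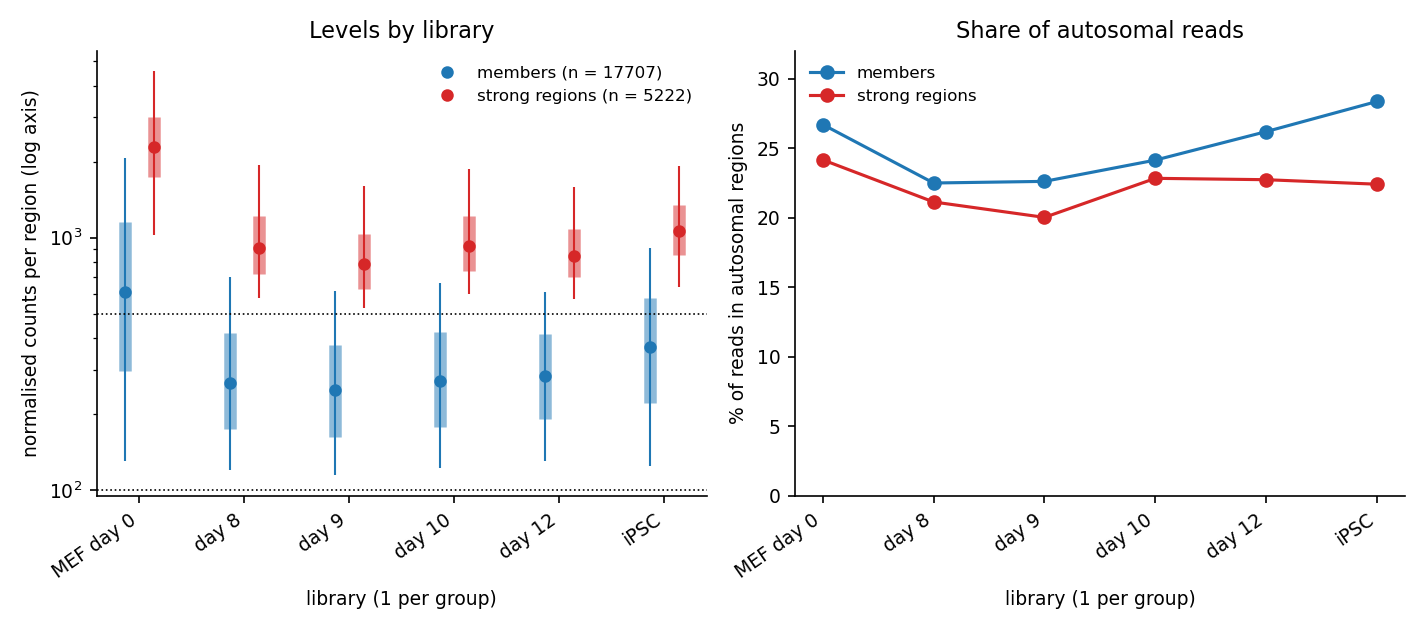
Left, normalised counts per region on a log axis in each of the 6 libraries for the members and the strong regions, with the median as a point, the middle 50% as a thick bar, the 5th to 95th percentile as a line and the limits of 100 and 500 dotted. Right, the share of autosomal reads in each set, which for the members was lowest at day 8 (22.5%) and highest in iPSC (28.4%).

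Measures within a library, which do not use the size factors once the members are chosen, gave a flatter picture than the normalised counts. A share of autosomal reads amounts to the scaling to equal autosomal totals, so it is no separate check of that scaling. The members took 26.7%, 22.5%, 22.6%, 24.1%, 26.2% and 28.4% of autosomal reads, and the 95% Wilson interval in iPSC ran from 28.33% to 28.37%. The share was thus lowest at days 8 and 9 and highest in iPSC, whereas the normalised counts were highest in MEF day 0. The strong regions took 24.2%, 21.1%, 20.01%, 22.8%, 22.7% and 22.4%. Both sets had a lower share at day 8 than in MEF day 0, and after day 10 the share of the members was higher at each later library while that of the strong regions was slightly lower.

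Ranks within a library also showed where the members stood among all autosomal regions. The median member lay at percentile 88.7, 89.2, 89.5, 90.6, 92.5 and 91.7 of its library. The lowest member lay at percentile 65.6 in MEF day 0 and 76.8 at day 12, because 34.5% of autosomal regions had at least 100 normalised counts in MEF day 0 and 23.3% at day 12. The limit of 100 was therefore less selective in MEF day 0 than in any other library. In all 6 libraries 4175 members (23.6%) were among the top 10% of autosomal regions, and 3380 (19.1%) were so in none. Of the strong regions 5137 (98.4%) were in the top 10% in all 6. From MEF day 0 to day 8, 2944 members (16.6%) climbed by at least 10 percentile points and 1338 (7.56%) dropped by as much. From day 12 to iPSC, 29 climbed and 1089 (6.15%) dropped by that much. The lowest member stood at percentile 72.6 for day 8 and 72.3 for iPSC. The limit of 100 thus raised the floor of the members over the first of these steps and lowered it over the last. This by itself favours climbs in the former and drops in the latter. These counts have no background over all autosomal regions, so nothing is read from their direction.

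Being open throughout did not mean being even. The highest and the lowest library of a member differed by a median of 1.78 on the log2 scale, a 3.43-fold difference of normalised counts plus 1, and the middle 50% of members spanned 1.30 to 2.30. A region whose highest and lowest library were within 2-fold was called steady. This held for 2295 members (13.0%), 523 strong regions (10.0%) and 3.35% of the 122302 autosomal regions with at least 100 normalised counts in at least 1 library, a background that did not need to stay above 100. At the other end, 6765 members (38.2%) varied by at least 4-fold. So did 11.9% of strong regions and 72.9% of all autosomal regions, which did not need to reach 100. MEF day 0 accounted for much of the range, since it was the highest library in 11905 members (67.2%), followed by iPSC in 3437 (19.4%) and day 8 in 1396 (7.88%). MEF day 0 was also the highest library in 94.3% of strong regions and in 36.0% of all autosomal regions. The lowest library was day 9 in 6819 members (38.5%), day 8 in 2871 (16.2%) and iPSC in 2585 (14.6%). Day 9 was lowest in 61.0% of strong regions and 15.4% of all autosomal regions. Without MEF day 0 the median range was 0.95, and 9529 members (53.8%) stayed within 2-fold over the other 5 libraries. The shares were 93.8% of strong regions and 19.3% of all autosomal regions. Over days 8, 9 and 10 alone the median range was 0.33, and 17620 members (99.5%) stayed within 2-fold. For these days the shares were 99.98% of strong regions and 77.2% of all autosomal regions.

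The number of steady members depended on the scaling between libraries. With equal totals of autosomal normalised counts the median of all autosomal regions moved against MEF day 0 by 1.03, 1.18, 1.14, 1.28 and 0.98 on the log2 scale from day 8 to iPSC, and with size factors over the always-open regions by 1.24, 1.39, 1.22, 1.22 and 0.88. Quantile normalisation moved it by -0.14 to -0.03. Of the same 17707 members, 5810 (32.8%) were steady with equal totals, and MEF day 0 was highest in 5359 (30.3%) and iPSC in 6720 (38.0%). With quantile normalisation 6212 (35.1%) were steady, and with size factors over the always-open regions 6830 (38.6%). Under all 4 scalings together, 377 members (2.13%) were steady.

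The 3 members with the smallest range were chosen for it, so their values are a description. Row 79870 on chromosome 15 had 205, 212, 206, 195, 214 and 201 normalised counts, and the ratio of its highest to its lowest library was 1.098 (95% exact interval 0.915 to 1.32). Row 163900 on chromosome 5 had 349, 363, 359.8, 359, 340.2 and 323, with a ratio of 1.12 (0.958 to 1.32). Row 19284 on chromosome 10 had 163, 174, 183, 169.8, 165 and 173, also with a ratio of 1.12 (0.872 to 1.46). Under the other scalings these rows did not stay level, and MEF day 0 was their lowest library each time. The ratio of highest to lowest library was then 2.59 to 2.73 for row 79870, 2.43 to 2.79 for row 163900 and 2.26 to 3.05 for row 19284.

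At the other extreme, 3 members differed by 39.1-fold or more while staying above the limit. Row 36397 on chromosome 11 had 4462, 101.4, 112, 150.1, 157 and 167 normalised counts, a 44.0-fold difference between MEF day 0 and day 8 (36.4 to 53.7). It was high in the fibroblasts and close to the limit in every later library. The region in row 4880 on chromosome 1 had 5843, 2289.6, 1955, 2070.1, 834 and 147, a 39.9-fold difference between MEF day 0 and iPSC (33.1 to 48.4), and the region in row 91129 on chromosome 17 had 4512, 411, 339, 392, 253 and 115, a 39.1-fold difference (31.8 to 48.8). Both were lower at day 8 and lower again after day 10. Folds of single regions, here and below, are on the authors' size factors, and their intervals leave the scaling out. Equal autosomal totals multiply MEF day 0 by 0.54, day 8 by 1.13 and iPSC by 1.09. Losses from MEF day 0 thus become smaller and gains larger, by more than the intervals allow.

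To see at which steps members changed, those that differed at least 2-fold between neighbouring time points were counted (the whole series, MEF day 0 to iPSC, was counted too). The background was the share called among autosomal regions whose higher library of the pair reached 100 normalised counts and, second, among all autosomal regions. The rule kept members at 100 or more at both ends, so nothing is read from the members' shares against these. From MEF day 0 to day 8, 10408 members (58.8%) were lower (background 57.3% and 35.2%) and 1272 (7.18%) were higher (background 26.3% and 35.3%). The median log2 difference was -1.26 in members, -1.29 in strong regions and -0.01 over all autosomal regions. This step was longer than those between the intermediates and took in the start of doxycycline and the SSEA1 sort. The counts of different steps are therefore not compared as rates. Few members changed at the next, shorter steps. From day 8 to day 9, 11 members were higher (background 1.18% and 4.85%) and 21 lower (2.54% and 5.21%). From day 9 to day 10, 7 were higher (0.391% and 3.87%) and 3 lower (1.24% and 4.67%). The median differences were -0.13 and 0.14, so the medians of these steps had opposite signs.

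More members changed at the steps towards the end of the series, which again differed in length and culture. Between days 10 and 12, 267 members (1.51%) were higher (background 7.40% and 13.4%) and 335 (1.89%) lower (15.0% and 13.7%). Of the strong regions, 0 were higher and 2 lower. From day 12 to iPSC, 1587 members (8.96%) were higher (background 27.1% and 16.6%) and 578 (3.26%) lower (13.0% and 23.8%), with a median difference of 0.40 in members, 0.28 in strong regions and 0.10 over all autosomal regions. Across the whole series, 1482 members (8.37%) were higher in iPSC than in MEF day 0 (background 25.6% and 31.4%) and 7125 (40.2%) lower (51.1% and 35.7%), with a median of -0.76. The steps share libraries and are not independent.

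The direction of these calls changed with the scaling. With equal autosomal totals and the same members, 3518 were higher and 3445 lower from MEF day 0 to day 8, so that higher calls made up 50.5% in place of 10.9%, and from MEF day 0 to iPSC 4640 were higher and 1970 lower, 70.2% in place of 17.2%. Between days 10 and 12 higher calls made up 80.3% in place of 44.4%, and at the last step 26.6% where the authors' scaling gave 73.3%. The median difference of members from day 12 to iPSC was 0.10 with equal totals, 0.06 with size factors over always-open regions and -0.09 with quantile normalisation. From MEF day 0 to day 8 it was -0.20, 0.02 and -0.04 in the same order. With size factors over always-open regions the same members had 4218 higher and 2462 lower at day 8, and with quantile normalisation 3309 and 2483. The few calls between days 8 and 9 and between days 9 and 10 moved too, to 84.6% and 55.6% higher with equal totals in place of 34.4% and 70.0%.

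The members were then put into 9 classes by their course. The first step ran from MEF day 0 to the mean log2 value of days 8, 9 and 10, and the second from that mean to iPSC, each up, level or down at a 2-fold limit. The largest class, with 7079 members (39.98%), went down and stayed level. Its medians were 1038, 288, 269, 300.1, 301 and 369.7. In the background of autosomal regions with at least 100 normalised counts in at least 1 library this course was found in 24.0%, and among strong regions in 78.0%. The next class, with 3999 members (22.6%), was level at both steps, with medians of 273, 245, 226, 235, 221 and 266 (background 7.40%, strong regions 18.9%). The rule kept members at 100 or more in every library, and the background did not. Nothing is therefore read from the share of a class against the background, here or for the classes below.

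A dip followed by a return was the third course. In 3213 members (18.1%) the intermediates of days 8 to 10 were at least 2-fold below both MEF day 0 and iPSC, where 14.0% of the background and 91 strong regions (1.74%) were. Their medians were 857, 195, 182, 210.1, 311 and 583. The region with the deepest dip, in row 120473 on chromosome 2, had 1948, 121, 155, 114, 326 and 1045 normalised counts. The lower of MEF day 0 and iPSC lay 3.01 above the mean of days 8 to 10 on the log2 scale, or 8.06-fold. Row 154557 on chromosome 5 had 1028, 129, 101.4, 166, 362 and 1015, and that in row 59729 on chromosome 13 had 936, 125, 112, 151, 409 and 1038. In all 3 the intermediates of days 8 to 10 were near the limit of 100, and day 12 lay between them and iPSC.

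The reverse course, a rise in the intermediates above both ends, was found in 462 members (2.61%), in 15.7% of the background and in 1 strong region. Regions below 100 at either end were barred by the rule but not by the background. The medians of the 462 members were 163, 686, 592, 577, 316 and 169. The region with the highest rise, in row 148851 on chromosome 4, had 110.4, 2017, 1472, 1686, 764 and 165. Row 41621 on chromosome 11 had 100.4, 2411, 1646, 1728, 672 and 211, a 24.0-fold gain from MEF day 0 to day 8 (95% exact interval 18.2 to 32.4), which was also the largest gain at that step. The third, in row 128561 on chromosome 2, had 100.4, 930.3, 1042, 1043, 521 and 123. These 3 had 55, 50 and 50 reads in MEF day 0, where the limit of 100 normalised counts stood at 49.8 reads.

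**Figure D2:**
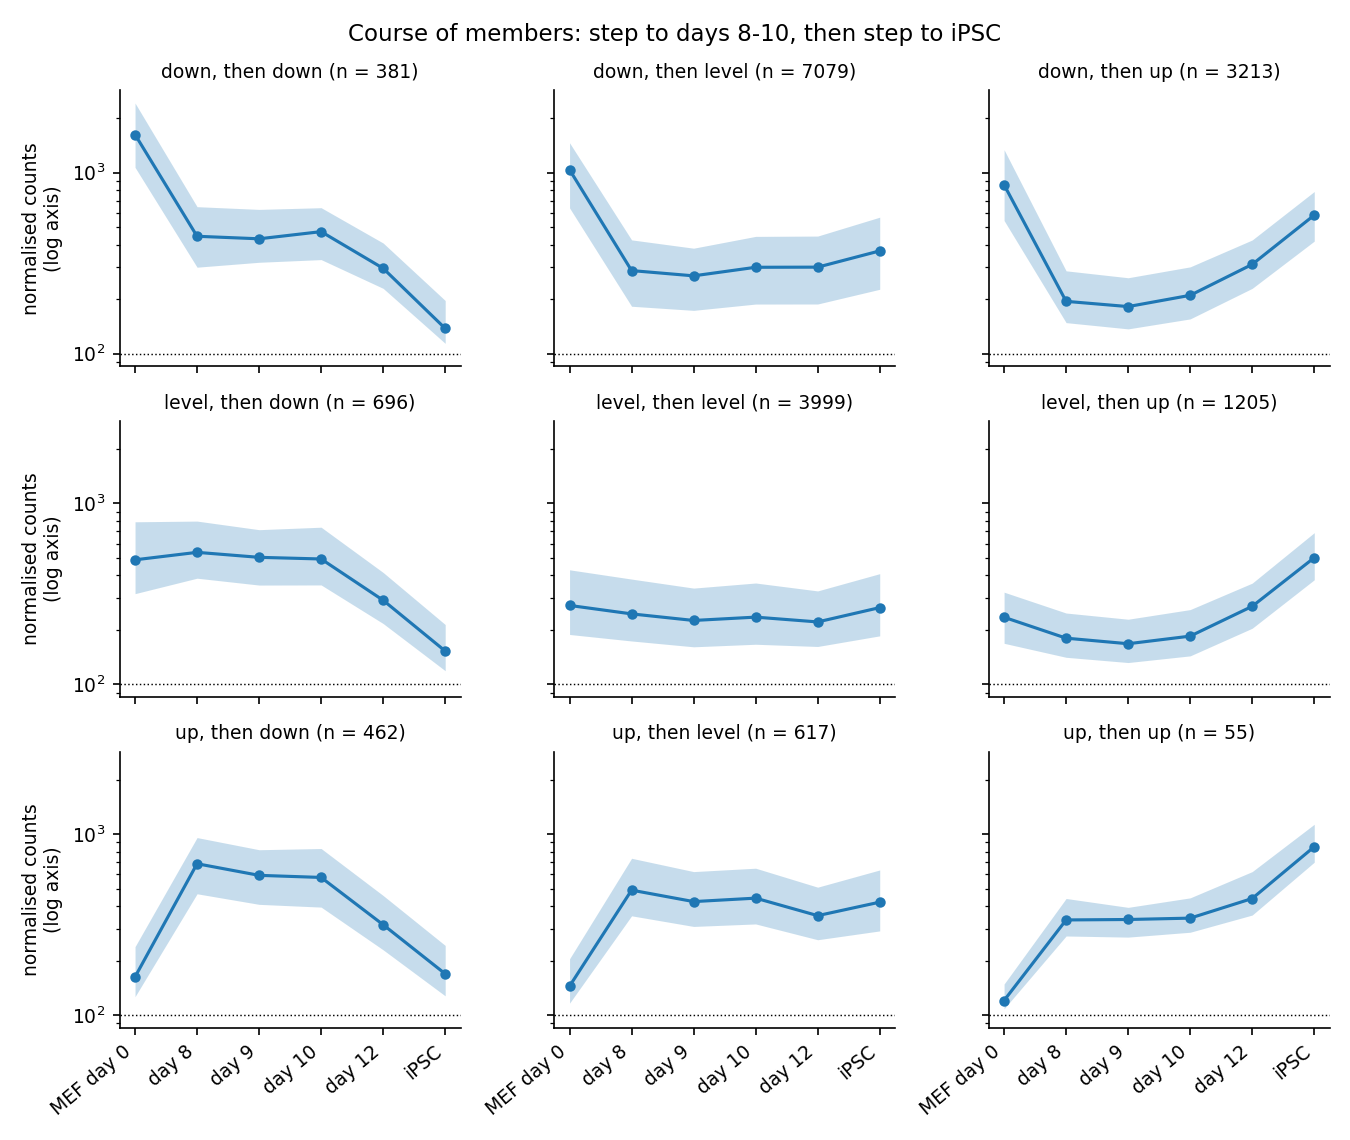
Median normalised counts (points and lines, log axis) and the middle 50% of members (band) in each of the 6 libraries for the 9 course classes, with the limit of 100 dotted. The 3213 members that went down and then up had a median of 182 at day 9, between 857 in MEF day 0 and 583 in iPSC.

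The other classes were smaller. In 1205 members (6.81%, background 9.86%) the first step was level and the second up, from medians of 185 at day 10 and 270.0 at day 12 to 501 in iPSC. In 696 (3.93%, background 5.35%) it was level and then down, with medians of 488, 537, 504, 493, 292 and 153. A rise kept to the end was found in 617 (3.48%, background 6.42%), which had medians of 145, 491, 424, 443, 355 and 421. In 381 members (2.15%, background 11.8%) both steps went down, from 1624.5 over 472 at day 10 to 138 in iPSC. Another 55 members (0.311%, background 5.37%) went up at both steps, from 120.5 over 344 at day 10 to 852 in iPSC.

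The largest changes after day 10 and across the whole series were as follows, on the authors' size factors. The largest gain from MEF day 0 to iPSC was in row 137235 on chromosome 3, with 104, 824, 969, 975, 914 and 1669 normalised counts, a 16.0-fold gain (12.1 to 21.5). The second, in row 144896 on chromosome 4, had 100.4, 436, 354, 354, 515 and 1569, a 15.6-fold gain (11.8 to 21.2). Both started next to the limit, but the first had its large step by day 8 and the second had steps at both ends of the series. Between days 10 and 12 the largest gain was in row 51288 on chromosome 12, from 148 to 471, a 3.17-fold gain (2.68 to 3.77) that went on to 1128 in iPSC. The largest loss at that step, in row 202353 on chromosome 8, went from 729.8 to 247, a 2.96-fold fall (2.58 to 3.40). From day 12 to iPSC, row 52831 on chromosome 13 had the largest gain, from 135 to 689 (5.10-fold, 4.25 to 6.16), after 1478 in MEF day 0. The largest loss was in row 128025 on chromosome 2, from 815 to 105 (7.75-fold, 6.19 to 9.81), after 2062 at day 8 and 271 in MEF day 0. The second largest fall at that step was in row 183016 on chromosome 7, which had 2131, 1112, 1221, 1130.2, 679 and 117 normalised counts, a 5.82-fold fall (4.69 to 7.30).

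**Figure D3:**
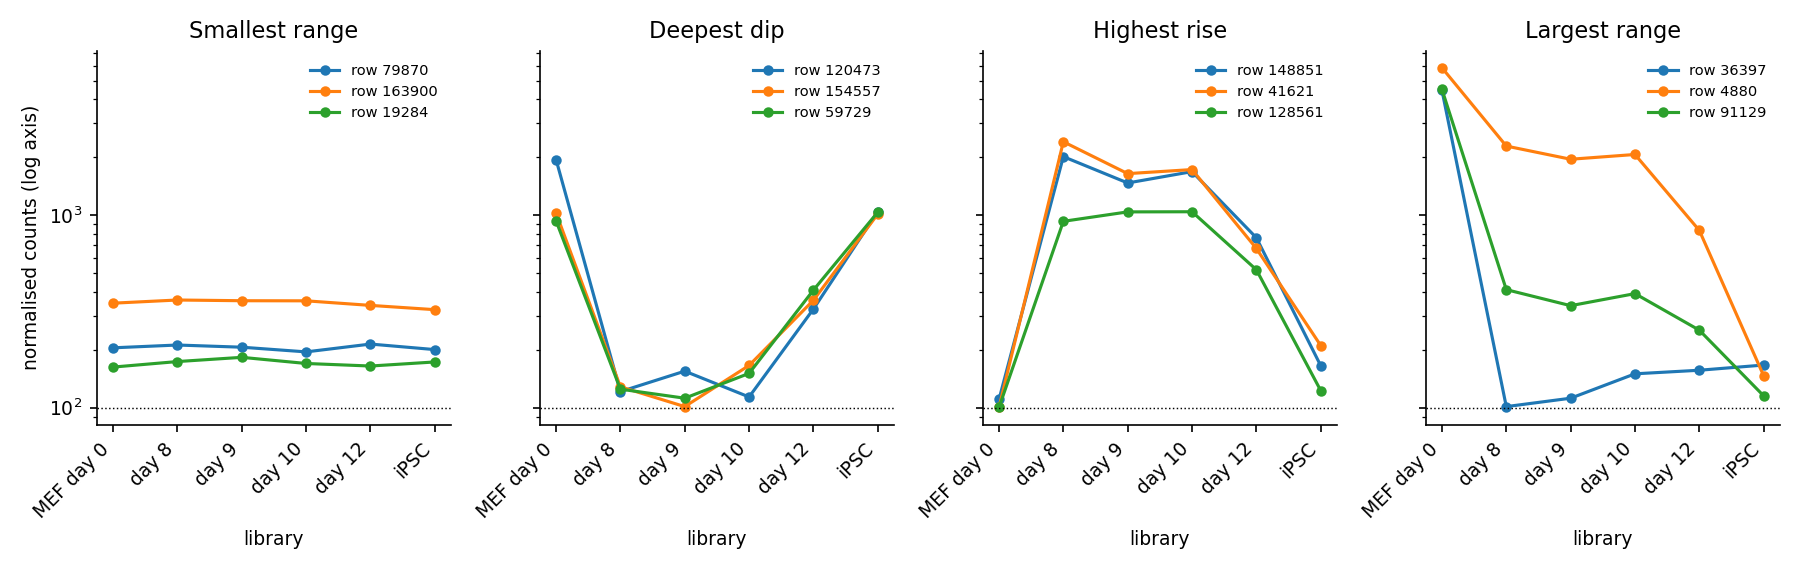
Normalised counts (log axis) of the 3 members with the smallest range, the deepest dip, the highest rise and the largest range in each of the 6 libraries, each line a region named by its row and the limit of 100 dotted. On the authors' scaling, the regions with the smallest range stayed between 163 and 363, whereas the one in row 36397 fell from 4462 in MEF day 0 to 101.4 at day 8.

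The class of a member depended on the scaling. With the same members, the class level at both steps held 8394 (47.4%) with equal autosomal totals, 9421 (53.2%) with quantile normalisation and 9149 (51.7%) with size factors over always-open regions. The class that went down and stayed level fell to 1793, 1139 and 1496, and dips fell to 1084, 750 and 572, while rises in the intermediates came to 1016, 1247 and 1381. Under all 4 scalings 4735 members (26.7%) had the same class. These were 1786 of the 3999 level members, 905 of the 7079 that went down and stayed level, 531 of the 3213 dips, 465 of the 617 rises that were kept and the 462 rises that were reversed. Equal totals and the always-open size factors raise days 8 to 10 against both ends in every region alike, so a rise cannot be lost under them, and these numbers do not show that one class was more stable than another. The 531 dips had medians of 1349, 167, 156, 188, 319.5 and 658.

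**Figure D4:**
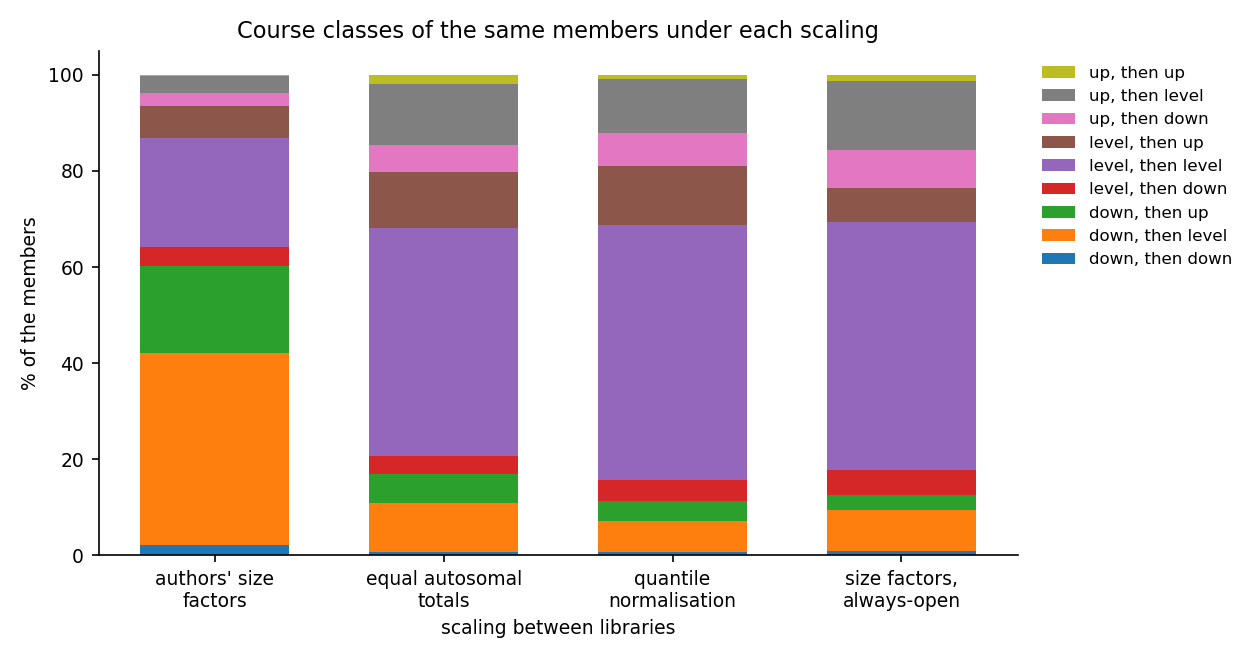
Share of the 17707 members in each of the 9 course classes under the authors' size factors and under 3 other scalings, as stacked bars that add to 100%. The class level at both steps held 22.6% under the authors' size factors and 47.4% to 53.2% under the others.

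Day 12 lay between the earlier intermediates and iPSC in most members that changed at the second step. In the 4473 members (25.3%) that were at least 2-fold higher in iPSC than at days 8 to 10, day 12 had covered a median of 0.41 of the log2 distance, with a middle 50% of 0.29 to 0.50, and 143 (3.20%) had moved the other way. In the 1539 (8.69%) that were at least 2-fold lower the median was 0.47, with a middle 50% of 0.34 to 0.62. With equal autosomal totals these medians were 0.58 and 0.35, so which of the sets was further along at day 12 depended on the scaling. Equal totals and the always-open size factors raise days 8 to 10 against iPSC by the same factor in every region, so under them falls can only be gained and rises only lost. Falls numbered 1539, 1802, 2118 and 2442, and rises 4473, 3467, 3065 and 2074, under the authors' scaling, equal totals, quantile normalisation and always-open size factors. Among strong regions, 120 (2.30%) rose and 33 (0.632%) fell at least 2-fold at this step on the authors' scaling. A share over all autosomal regions is not given here, so nothing is read from the shares of members.

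Libraries next to each other after MEF day 0 were alike across members. Over the 17707 members, Pearson's r of the log2 values of neighbouring libraries after MEF day 0 was 0.94, 0.94, 0.82 and 0.75, and Spearman's rho was 0.93, 0.94, 0.83 and 0.77. Over all autosomal regions the r of these pairs was 0.94, 0.94, 0.84 and 0.78, so this was not particular to the members. In members the r of MEF day 0 with each later library was 0.30, 0.32, 0.39, 0.48 and 0.40. Among strong regions the r of MEF day 0 was 0.59 with day 8 and 0.58 with iPSC. Over all autosomal regions it was 0.43 with day 8 and 0.43 with iPSC. The points share libraries and depth, and both limits cut the range of values, so these are descriptions.

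Chromosome and row order were not used by the rule within autosomes. Members made up 6.59% of the regions of chromosome 18 (496 of 7525), the lowest share, and 10.0% of those of chromosome 11 (1489 of 14828), the highest, with a median of 8.08% over the 19 autosomes. Chromosome 7 had 9.55%, chromosome 19 had 9.48% and chromosome 17 had 9.35%. The share went with gene density. Chromosome 18 has 5.66 protein-coding genes per Mb and chromosome 11 has 13.4, by the GENCODE annotation of GRCm38. Over the 19 autosomes the share of members and the gene density had a Pearson r of 0.87 and a Spearman rho of 0.89. For the share of strong regions these were 0.88 and 0.76. All regions together were also denser on gene-rich chromosomes, from 70.2 per Mb on chromosome 14 to 121 on chromosome 11, with an r of 0.77 and a rho of 0.84. The chromosomes share their libraries and the region set, and base composition was not compared.

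The share of each course was also counted on single autosomes, on the authors' scaling. The share of dips among members ran from 14.6% on chromosome 19 to 24.2% on chromosome 13, and that of members level at both steps from 17.5% on chromosome 18 to 25.5% on chromosome 5. The medians of MEF day 0 lay between 560.2 on chromosome 12 and 698 on chromosome 3. These are the extremes of the autosomes. They have no counting interval, no share over all regions and no other scaling beside them, so nothing is read from their spread.

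The X chromosome gave a contrast at the second step. Of the 5357 X-linked regions, 418 (7.80%) were within the same limits, a share inside the range of the autosomes. Their medians were 654, 245, 239, 258, 358 and 763, where the autosomal members had 606 in MEF day 0 and 369.7 in iPSC. At least 2-fold higher in iPSC than at days 8 to 10 were 337 of them (80.6%), against 21.2% to 31.8% of the members on single autosomes. Female pluripotent cells are known to keep both X chromosomes active, but reads of both alleles were counted together here, and the part of the reactivated X was not tested. Under the other scalings X-linked regions were again above each autosome, with 74.9% against 16.5% to 25.3% for equal autosomal totals, 66.5% against 13.8% to 22.2% for quantile normalisation and 55.7% against 8.98% to 16.1% for size factors over always-open regions. The change compared runs between libraries of different time points, with 1 library each, and has no check by replicates.

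**Figure D5:**
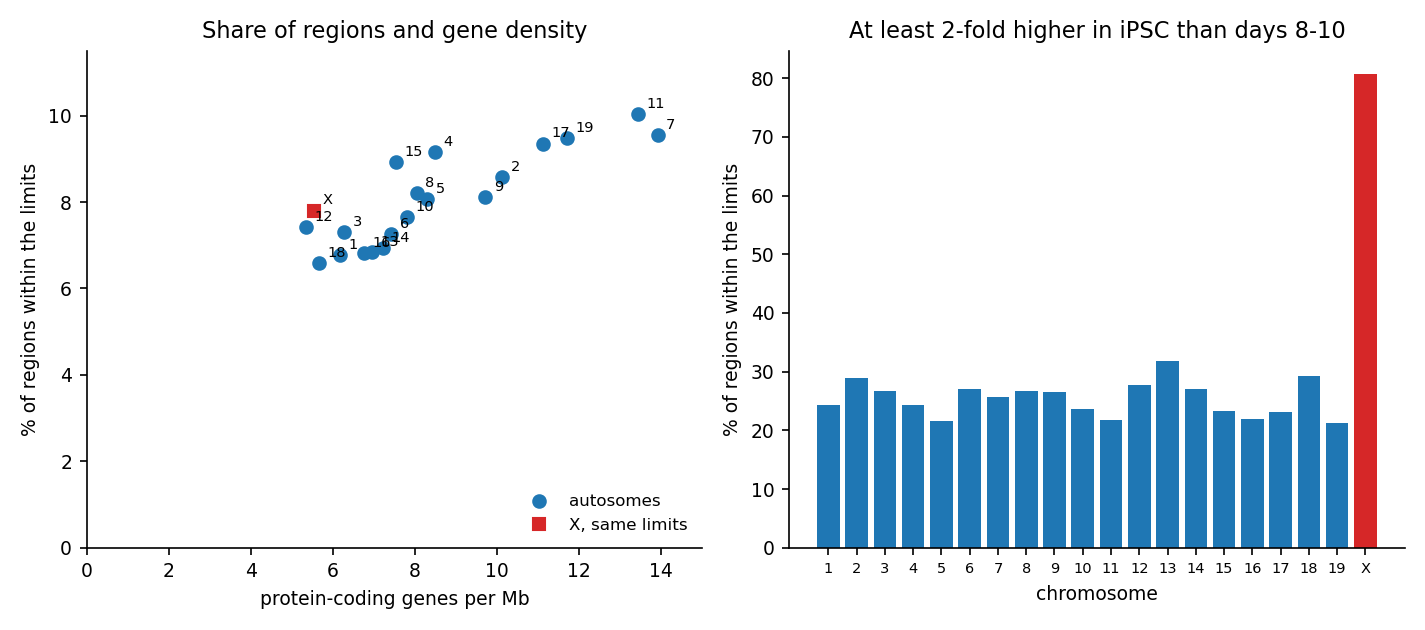
Left, the share of each chromosome's regions within the limits against protein-coding genes per Mb, for the 19 autosomes (circles) and the X chromosome (square), from 6.59% on chromosome 18 to 10.0% on chromosome 11. Right, the share of these regions at least 2-fold higher in iPSC than the mean of days 8 to 10, which was 21.2% to 31.8% on autosomes and 80.6% on the X chromosome.

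Members followed each other in the table somewhat more often than they followed other regions, although most stood alone. Rows are grouped by chromosome, and whether their order within a chromosome follows position is not given in the sources used here. A member was followed in the next row by another member in 14.6% of cases, whereas a region that was no member was followed by one in 7.54%. Strong regions, 2.39% of all, were followed by a strong region in 4.64%, and regions with a lowest library of 50 to 100, 8.30% of all, by one of their kind in 11.01%, so this was not particular to the members. At 5 rows apart the values were 11.3% and 7.84%, at 50 rows 9.76% and 7.98% and at 200 rows 8.75% and 8.07%. Neighbouring members were also somewhat alike in their course. Of the 2579 pairs in adjacent rows, 859 (33.3%) were of the same class, against 26.1% of the 1521 pairs 200 rows apart. The log2 difference from MEF day 0 to iPSC had a Pearson r of 0.17 (Spearman's rho 0.19) between members in adjacent rows and -0.02 (rho -0.02) at 200 rows. Over all autosomal regions the r of adjacent rows was 0.21, so the likeness of neighbours was seen in the whole table. No member was in an adjacent row for 13054 members (73.7%). There were 1688 runs of 2 members and 292 of 3, and the longest were 2 runs of 7, one of them in rows 92157 to 92163 on chromosome 17.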

How the data were processed

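ATAC-seq libraries of 6 time points, 1 each, were analysed. The authors aligned paired-end reads to GRCm38/mm10 with the ENCODE ATAC-seq pipeline, joined alignments and peaks with DiffBind 3.8 and normalised the read counts by DESeq2 1.21.22 size factors. The deposited values are log2 of normalised counts plus 1, not split by allele. Columns were matched to samples by title, and groups taken from the time point label. Normalised counts were 2 to the power of the value minus 1, and 100% of values in each library were whole multiples of 1 step (tolerance 0.001), which gave reads and size factors. Size factors are set by the typical region, so that levels compare only if this region does not change. Normalised counts summed to 54460100 in MEF day 0 and to between 22020300 and 27653400 elsewhere.

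Members, classes and alternatives were chosen with earlier results of these data known. Log2 differences used a pseudocount of 1, which hardly matters above 100 counts. Regions named in the text were the 3 of smallest and of largest range, the 3 deepest dips and highest rises, the 2 largest gains and losses at each large step (of these the text gives the largest and some second ones) and the 2 nearest to each limit. Ratios of single regions have 95% exact (Clopper-Pearson) intervals, and shares of reads 95% Wilson intervals. Both take each read as independent. No test across libraries was made. Gene density came from GENCODE M21 and chromosome lengths from RefSeq GRCm38. Alternatives were equal autosomal totals, quantile normalisation, size factors over always-open regions, limits of 80 and 400 or 120 and 600, the rule on 5 columns, folds of 1.5 and 4, a pseudocount of 10 and another background. The counting was tested on simulated data. Python 3.11.15, numpy 2.4.6, pandas 2.3.3, scipy 1.17.1 and matplotlib 3.10.9 were used.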

Additional observations from a re-analysis of the deposited data

Results flagged for a closer look

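The Y-linked regions entered no comparison. Signal outside the main measurement was seen in 3 of the 8 Y-linked regions, which had at least 100 normalised counts in every library, with values from 466 to 2690.5, although the study describes the cells as female. Its source was not tested.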

How the results depend on the processing

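No paired analysis was possible because each group held 1 library. With members chosen again under equal autosomal totals, quantile normalisation and size factors over always-open regions in turn, steady members came to 5443, 5185 and 6412, dips to 1299, 857 and 721, rises to 712, 1007 and 791, members level at both steps to 8031, 8347 and 8726, and those down and then level to 2021, 1229 and 1716. Members changed 2-fold were 5873, 5259 and 4975 from MEF day 0 to day 8, and 5599, 5436 and 4973 from MEF day 0 to iPSC. From day 12 to iPSC they were 1430 with equal totals and 1135 with size factors over always-open regions. Quantile normalisation gave 86 between days 8 and 9, 65 between days 9 and 10 and 1192 between days 10 and 12. The r of MEF day 0 and iPSC was 0.32, 0.30 and 0.32 in the same order, and that of days 8 and 9 was 0.95 with size factors over always-open regions. Limits of 80 and 400 gave 699 rises, 62, 21 and 952 changed members at the steps from day 8 to day 12, and an r of 0.32 for MEF day 0 and iPSC. Limits of 120 and 600 gave 15 changed members between days 8 and 9, 378 between days 10 and 12, and r values of 0.44 for MEF day 0 and iPSC and 0.94 for days 8 and 9. With the rule on 5 columns, leaving out MEF day 0 gave 1418 rises, 55, 22 and 1059 changed members at the steps from day 8 to day 12, 13478 from MEF day 0 to iPSC, and an r of 0.93 for days 8 and 9. Leaving out iPSC gave 1096 rises, 97 changed members between days 8 and 9, 1643 between days 10 and 12, 6117 from day 12 to iPSC and 12917 from MEF day 0 to iPSC, with r values of 0.26 for MEF day 0 and iPSC and 0.92 for days 8 and 9. Leaving out day 8 gave 49 between days 8 and 9, and leaving out day 9 gave 51 there and 40 between days 9 and 10. A 1.5-fold limit gave 446 steady members, 6793 dips and 872 rises. A 4-fold limit left 4086 changed members from MEF day 0 to day 8, 0, 0 and 0 at the 3 steps that follow, 49 from day 12 to iPSC and 2286 from MEF day 0 to iPSC. The share of members on chromosome 11 was 12.4% and on chromosome 18 8.46% among regions with at least 50 normalised counts in at least 1 library, and 9.55% on chromosome 11 with equal totals. Within the next 5 rows, 44.5% of members and 30.4% of other regions had a member. Counts held under all 4 scalings, an alternative chosen after seeing the data, were 531 dips, 1786 level at both steps, 905 down and then level and 377 steady. The other scalings of the X-linked share and of the 3 members with the smallest range were also chosen after seeing the data. The causes of these shifts were not tested. With 1 library per group, differences have no replicate error, and single regions are limited by counting error.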
